A study of Mus musculus with 12 samples.

Results

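Mitosis and spindle genes are described here in the RNA of LSK cells, the bone marrow cells that lack lineage markers, carry Sca-1 and KIT, and comprise the hematopoietic stem cells and multipotent progenitors. The members are 52 of the 35999 genes of the deposited table, taken by name from a list of G2/M, kinetochore, spindle and condensin genes, and each of the 52 names was found. Each of 12 mice gave 1 RNA-seq library of its sorted LSK cells, and the labels call 6 mice WT and 6 KO for Fancg, a subunit of the Fanconi anemia core complex that acts in the repair of DNA interstrand crosslinks. Nothing in the labels or the methods gives a treatment, an age or a strain for these mice, so the groups are known by genotype alone. The KO mice are described as Fancg-/-, a genotype of the whole animal and not of the LSK fraction alone. The question put to these genes was whether their transcript levels differed between the labels.

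A cell enters mitosis when CDK1, bound to a B-type cyclin and released by CDC25 phosphatases, phosphorylates its substrates. PLK1 and the Aurora kinases then build the spindle, the kinetochores attach the chromosomes to it, and the checkpoint proteins hold back CDC20 and the anaphase-promoting complex until every chromosome is attached. Condensins and topoisomerase II compact and untangle the chromosomes, and kinesins, PRC1 and ECT2 divide the cell. The genes are transcribed late in the cell cycle, so their level in a bulk sample follows how many of its cells are cycling, and quiescent stem cells hold little of their RNA. Much of this timing runs through 2 short promoter elements, the cell cycle genes homology region (CHR), at which the DREAM complex represses and the MYB-MuvB complex with FOXM1 activates, and the CCAAT box bound by NF-Y.

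Of the members, 43 have a promoter in the RefSeq table used (GRCm38.p6, 250 bases before to 50 after the start of the gene), with 47 promoters in all since 4 of them have more than 1. The CHR was searched as TTTGAA or TTCGAA on both strands, and the centre of a match lay within 50 bases of the start in 32 of the 47 promoters (68.1%), against 5.5% of all 32851 promoters. The CCAAT box was searched as CCAAT on both strands. It was present in 76.6% of the members' promoters and in 37.4% of all promoters, and at least 2 copies were present in 51.1% and 11.7%. Anywhere in the window, the CHR was present in 76.6% of the members' promoters and in 19.2% of all promoters. Both elements, each anywhere in the window, occurred in 66.0% of the members' promoters and in 7.5% of all promoters. In 1 promoter of a member a match to the CHR shared letters with a CCAAT box. A match is a run of letters and was not tested as a binding site. The following 30-base windows show the CHR match and its flanks in members from different parts of the mitotic machinery, with the CHR in capitals and each window read 5′ to 3′ on the strand on which it is TTTGAA. The capital letters are shared because the search chose them, and the likeness of the flanks was not measured.
Cdk1, chr10:69352910-69352939, minus strand: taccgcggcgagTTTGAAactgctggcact
Cks1b, chr3:89418291-89418320, minus strand: gcgggcggtgtgTTTGAAagcgaggccaaa
Plk1, chr7:122159453-122159482, plus strand: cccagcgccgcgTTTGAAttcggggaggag
Aurka, chr2:172370521-172370550, minus strand: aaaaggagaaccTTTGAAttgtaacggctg
Cdc20, chr4:118437344-118437373, minus strand: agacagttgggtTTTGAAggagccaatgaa
Cenpa, chr5:30666890-30666919, plus strand: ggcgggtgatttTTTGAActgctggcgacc
Ndc80, chr17:71526811-71526840, plus strand: aacccaaggcggTTTGAAttttaaagtttc
Kif11, chr19:37376351-37376380, minus strand: ccgcgcctcaatTTTGAAaaatggagacga
Kif23, chr9:61946780-61946809, minus strand: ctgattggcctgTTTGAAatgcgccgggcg
Prc1, chr7:80294434-80294463, plus strand: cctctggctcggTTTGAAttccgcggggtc
Smc2, chr4:52439235-52439264, minus strand: cggaactgttccTTTGAAtttcggcgcgag
Top2a, chr11:99024195-99024224, plus strand: tccctagtttcaTTTGAAcctttatctagc

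Some named members had no CHR within 50 bases of the start. Birc5 and Mad2l1 had neither element in the window. Ncapd2 had 1 CHR farther upstream, with its first base at -123, which is not printed. Mki67 carried 2 copies farther upstream, printed on the strand of the gene, and for Ccnb1, Cenpe, Cks2 and Ncapd2 the CCAAT box nearest the start is shown in capitals, on the strand on which it reads CCAAT.
Mki67, chr7:135716470-135716499, minus strand: agaaTTTGAAccgccgttttggTTTGAAtc
Ccnb1, chr13:100786536-100786565, minus strand: gccacgaactggCCAATgaggagcgagcgg
Cenpe, chr3:135212539-135212568, plus strand: acgctgcgccacCCAATccgctgcaacctt
Cks2, chr13:51645234-51645263, minus strand: gcgaagccaccaaCCAATcacgctccgcgc
Ncapd2, chr6:125191617-125191646, plus strand: gcggaggaaccggCCAATccgcggcaggct

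**Figure D1:**
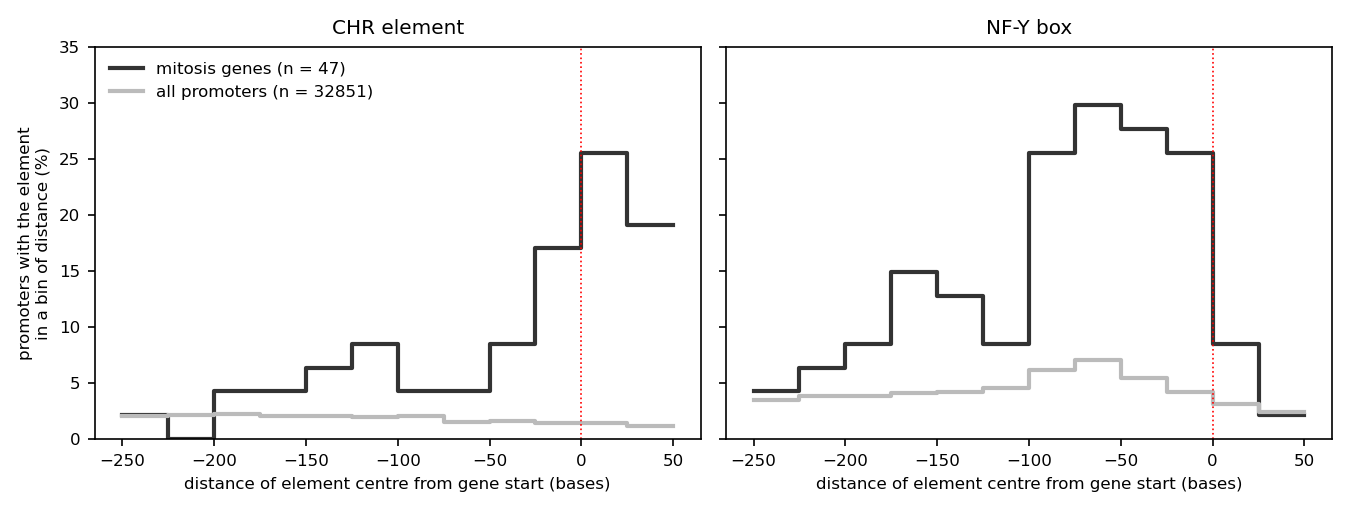
Share of promoters (vertical axis, percent) that hold the CHR (left) or the NF-Y box (right) in each 25-base bin of distance from the start of the gene (horizontal axis, bases), for the 47 promoters of mitosis genes (dark) and all 32851 promoters (grey). The CHR of the mitosis genes piles up at the start, with 25.53% of promoters in the bin from 0 to 25 bases against 1.44% of all promoters, and the NF-Y box lies before the start, with 29.79% against 7.06% in the bin from -75 to -50.

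The deposited value, called signal here, was taken as an estimated read count of a gene divided by a size factor of its library. Libraries summed to a signal between 1576081 and 2672915, and their depth was about 1235086 to 2471271 reads. The ends of these ranges belong to different libraries. Lars2 alone took between 15.6% and 36.2% of a library. Fancg did not separate the labels, with a signal of 10.3 ± 6.96 (SD, n = 6) for WT and 8.53 ± 4.18 (SD, n = 6) for KO (log2 fold change -0.20, two-sided exact permutation test, p = 0.636) on 3.16 to 22.3 approximate reads, so every direction below is one between labels, and KO and WT stand for the libraries so labelled. As a check of the sorted fraction, 13 of 14 LSK and stem cell markers had a mean signal of at least 10. Kit was at 283 to 435, and Ly6a, which encodes Sca-1, was low at 4.84 to 17.4. Of the marker lists of other cells, a mean signal of at least 10 was reached by 6 of 12 neutrophil and monocyte genes, 3 of 11 erythroid genes and 2 of 8 genes each of the megakaryocyte, B cell and T and NK cell lists. These were Mpo, Elane, Prtn3, Ctsg, Lyz2 and Csf1r, Car1, Car2 and Tfrc, Itga2b and Vwf, Cd79b and Ebf1, and Nkg7 and Il7r. Mpo had a mean of 661 for WT and 704 for KO, Car2 of 118 and 109, and Ebf1 of 117 and 132. The megakaryocyte list summed to 48 to 95 for WT and 50 to 274 for KO, highest in KO 7, and its Itga2b had a mean of 14.8 for WT and 25.8 for KO (log2 fold change 0.72, exact permutation p = 0.00433, limma adjusted p = 0.9996). Of the same lists, S100a8, S100a9, Ngp, Ltf and Camp (neutrophils), Hba-a1, Hba-a2 and Hbb-bt (erythroid cells), Pax5, Vpreb1, Igll1 and Ms4a1 (B cells), Cd3e, Cd3d, Cd3g, Trbc2 and Klrd1 (T and NK cells) and Ppbp and Treml1 (megakaryocytes) had a mean signal under 1. Y-linked transcripts were low in WT 3 and KO 7, where they summed to 26.6 and 49.7, and between 189 and 435 in the other libraries.

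No mitosis gene passed the test between the labels after adjustment. Of the 52 members, 50 had a mean signal of at least 10 and were tested with limma on log2(signal + 1), on which the change of a low gene comes out too small, together with all 8887 genes at that level. After Benjamini-Hochberg adjustment over those 8887 genes 0 members had a p under 0.05 in limma (adjusted p = 0.9996 for each), as had 0% of all genes tested. Without adjustment 1 member, Ncapd2, had a p under 0.05, 2.00% of those tested, where 3.67% of all genes did, 1.98% with a higher and 1.69% with a lower signal for KO. Of the 50 members 35 had a higher mean log2 signal for KO (70.0%, against 50.7% of all genes tested), with a median log2 fold change of 0.09 against 0.00. That count moved with single libraries. WT 3 and KO 7 were low in Y-linked transcripts and were also the lowest WT and the highest KO library on the mean of the members, and without both 17 of 50 members were higher for KO and the median was -0.06. Without KO 3, the lowest KO library on that mean, 42 were higher and the median was 0.22, and without KO 7 alone 26 were higher and the median was 0.01. The ranges of the WT and KO libraries overlapped for all 52 members, and they did not overlap for 0.09% of all genes tested.

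Standard errors of the log2 fold change ran from 0.14 to 0.37 among the tested members, with a median of 0.24. The 95% interval held 0 for 49 of the 50, and for 47 of them it lay wholly between -1 and 1. The log2 fold changes reached from -0.51 for Espl1 to 0.44 for Plk1. In 10 members every library held fewer than 30 approximate reads, so counting error may be a large part of their spread. That part was not measured.

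**Figure D2:**
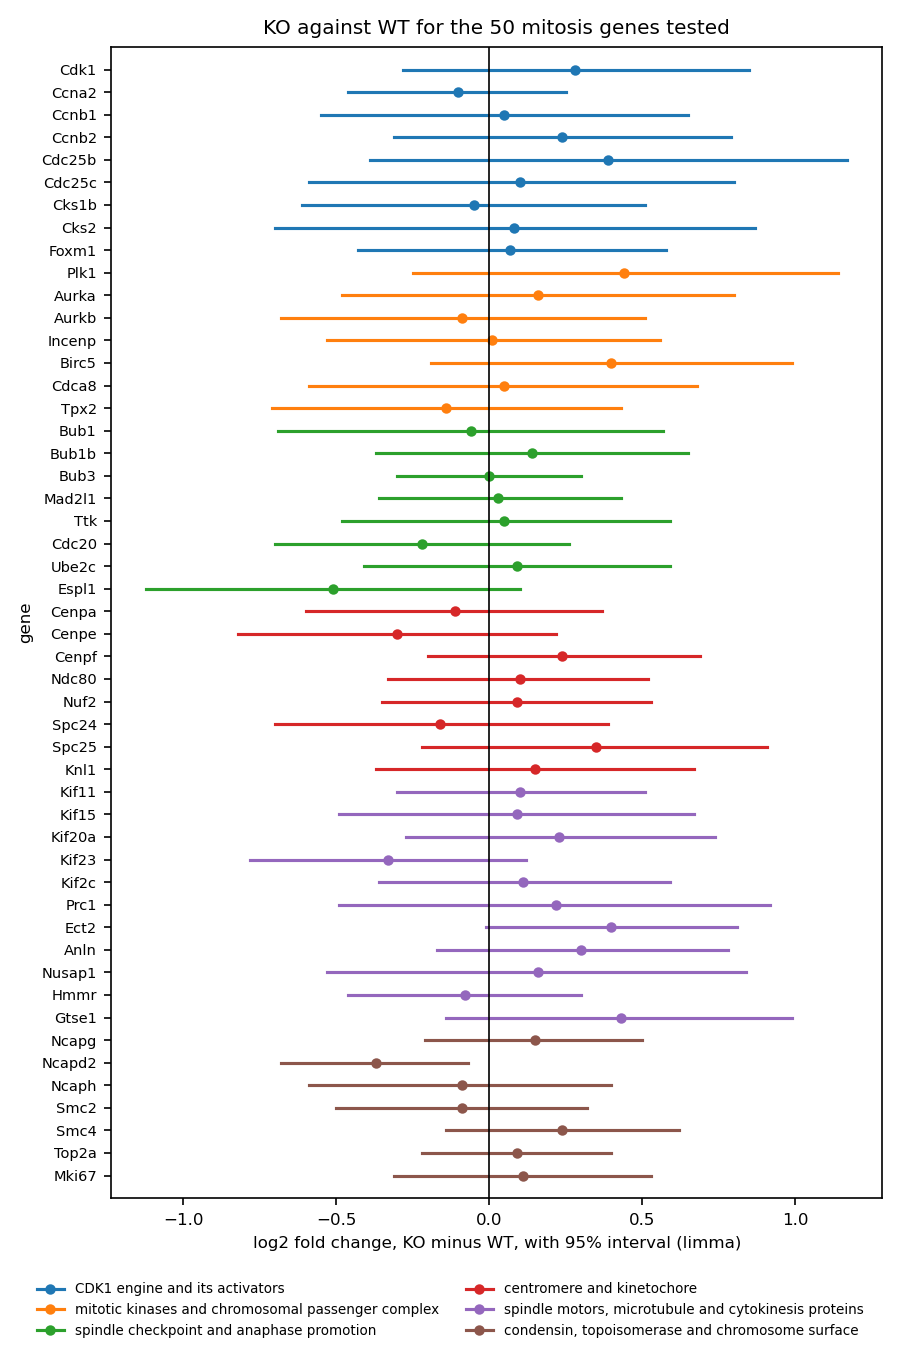
Log2 fold change of each of the 50 mitosis genes tested (horizontal axis, KO minus WT, on log2(signal + 1)), as a point with its 95% interval from limma, coloured by role. The interval of Ncapd2 is the one that lies wholly on one side of 0, at -0.68 to -0.07, and the estimates run from -0.51 to 0.44.

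Per kilobase of exon the transcripts differed widely in level. The highest mean signal per kilobase over the 12 libraries belonged to Ncapd2 (81.9), a subunit of condensin I, followed by Cks2 (74.0), a small protein that binds CDK1, and Mki67 (72.8), which encodes the Ki-67 protein that coats mitotic chromosomes. Ccnb2 (48.6), Tpx2 (40.2), Ube2c (37.8) and Knl1 (33.4) came next. The lowest values were those of Espl1 (1.46), Cenpe (1.61), Kif4 (1.72) and Anln (1.76). Lengths were those of all annotated exons of a gene merged, so a gene with long unused exons is placed too low in this order. A gene credited with reads of an overlapping gene would be placed too high. An exon of Ncapd2 overlaps the small RNA gene Scarna10 on the same strand, and its part in the signal was not tested.

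The CDK1 engine had 9 members, all of them tested, of which 7 had a higher and 2 a lower mean log2 signal for KO, with a median log2 fold change of 0.08. Cdk1, the kinase that drives mitotic entry, had a signal from 49.7 (median 53.4) to 66.9 in the WT libraries and from 33.9 (median 77.5) to 112 in the KO libraries. KO 2 and KO 3 lay below every WT library and the other 4 KO libraries above every one, so the KO libraries spread on both sides of the WT range. Its log2 fold change was 0.28 (SE 0.26, exact permutation p = 0.351). Ccnb1, its cyclin partner, ran from 30.3 (median 57.8) to 88.2 for WT and from 30.0 (median 60.2) to 95.9 for KO, with WT 2, KO 3 and KO 2 lowest and KO 6 and WT 6 highest. The ranges coincided nearly completely, and the log2 fold change was 0.05 (SE 0.28, exact permutation p = 0.898).

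Ccna2, cyclin A2, which acts from S phase into early mitosis, spread little, from 84.9 (median 110) to 125 for WT and from 66.5 (median 103) to 128 for KO (log2 fold change -0.10, SE 0.17). One of its exons overlaps Exosc9 on the opposite strand, and whether the reads were counted by strand is not given in the sources used here. Foxm1, the forkhead factor that activates many of the genes described here, ran from 17.2 (median 19.7) to 30.7 for WT and from 16.1 (median 18.6) to 39.2 for KO, with KO 7 highest (log2 fold change 0.07, SE 0.24). The CDK1-binding subunits Cks1b and Cks2 had log2 fold changes of -0.05 (SE 0.26) and 0.08 (SE 0.37). Cks2 was among the most variable members, from 14.4 in WT 2 to 84.0 in WT 6 and from 27.6 in KO 3 to 97.5 in KO 6. Its libraries overlapped throughout, as did those of the B-type cyclin Ccnb2 (0.24, SE 0.26) and of the CDK1-activating phosphatases Cdc25b (0.39, SE 0.37) and Cdc25c (0.10, SE 0.33).

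Among the 7 mitotic kinases and members of the chromosomal passenger complex, 5 were higher and 2 lower for KO (median log2 fold change 0.05). Plk1, the polo-like kinase that acts in centrosome maturation and kinetochore attachment, had the highest positive estimate among the tested members, on low counts of 5.04 to 21.1 approximate reads. It ran from 5.82 (median 10.9) to 15.5 for WT and from 7.99 (median 15.3) to 29.5 for KO, and KO 7 stood highest (log2 fold change 0.44, SE 0.33, exact permutation p = 0.190). The log2 fold change was 0.25 without KO 7 and 0.10 without WT 3 and KO 7. Aurka, the Aurora kinase of the centrosomes, ran from 21.9 (median 26.7) to 62.4 for WT and from 20.6 (median 34.5) to 56.3 for KO (log2 fold change 0.16, SE 0.30), with WT 6 and KO 7 highest. Tpx2, which binds and activates Aurora A on spindle microtubules, was at 133 (median 183) to 350 for WT and 103 (median 149) to 275 for KO, again with WT 6 and KO 7 highest (log2 fold change -0.14, SE 0.27).

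Aurkb, the kinase of the passenger complex, had a signal of 25.0 ± 6.67 (SD, n = 6) for WT and 24.4 ± 9.82 (SD, n = 6) for KO (log2 fold change -0.09, SE 0.28). Birc5, survivin, which targets the complex to centromeres, ran from 31.2 (median 70.8) to 94.2 for WT and from 52.6 (median 89.2) to 118 for KO. WT 3, WT 7, KO 3 and WT 4 were lowest and KO 6 highest, the ranges overlapped, and the log2 fold change was 0.40 (SE 0.28, exact permutation p = 0.229). It was 0.21 without WT 3 and 0.16 without WT 3 and KO 7. The scaffold Incenp (0.01, SE 0.26) and borealin, Cdca8 (0.05, SE 0.30), completed the complex.

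The spindle checkpoint and anaphase group had 9 members, of which 8 were tested, 5 higher and 3 lower for KO (median log2 fold change 0.02). Bub3, a checkpoint protein and the group's member of highest mean signal, was nearly level over the 12 libraries, from 83.9 (median 114) to 123 for WT and from 91.0 (median 107) to 124 for KO. Its log2 fold change was 0.00 (SE 0.14), and 1 of its exons overlaps Fgfr2 on the opposite strand. Mad2l1, the checkpoint protein that binds CDC20, had a log2 fold change of 0.03 (SE 0.19), and the kinase-like Bub1b one of 0.14 (SE 0.24). The checkpoint kinases Ttk (0.05, SE 0.25) and Bub1 (-0.06, SE 0.30) had intervals around 0 as well.

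Cdc20, the activator of the anaphase-promoting complex, ran from 15.2 (median 18.4) to 23.5 for WT and from 9.04 (median 17.5) to 22.2 for KO (log2 fold change -0.22, SE 0.23). Ube2c, the ubiquitin-conjugating enzyme of that complex, ran from 55.8 in WT 3 to 147 in WT 6 and from 60.9 in KO 3 to 155 in KO 7 (log2 fold change 0.09, SE 0.24). Espl1, separase, which cuts cohesin at anaphase, was at 8.95 (median 13.0) to 24.8 for WT and 6.83 (median 11.1) to 12.2 for KO. WT 3 and WT 4 were the libraries above 20, the other libraries of both labels overlapped, and the log2 fold change was -0.51 (SE 0.29, limma p = 0.0968, two-sided exact permutation p = 0.0996). Its inhibitor Pttg1, securin, lay below the level tested with 1.58 to 17.2 over the 12 libraries (log2 fold change 0.17, exact permutation p = 0.779).

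Of the 8 centromere and kinetochore genes 5 were higher and 3 lower for KO (median log2 fold change 0.09). Cenpa, the histone H3 variant that marks centromeres, ran from 34.2 (median 53.2) to 76.2 for WT and from 29.6 (median 53.1) to 66.4 for KO (log2 fold change -0.11, SE 0.23). The group medians were nearly equal and the ranges overlapped. Cenpe, the kinesin that moves chromosomes to the spindle equator, ran from 9.92 (median 15.5) to 19.4 for WT and from 7.45 (median 12.2) to 17.0 for KO (log2 fold change -0.30, SE 0.25, exact permutation p = 0.177).

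The outer kinetochore binds microtubules through the NDC80 complex. Ndc80 ran from 41.1 (median 52.8) to 60.7 for WT and from 40.4 (median 49.2) to 88.7 for KO (log2 fold change 0.10, SE 0.20), with KO 7 and KO 5 above every WT library. The other subunits, Nuf2 (0.09, SE 0.21), Spc24 (-0.16, SE 0.26) and Spc25 (0.35, SE 0.26), did not share a direction. Spc25 had the smallest limma p of the group (exact permutation p = 0.273) and was carried by KO 7 at 86.0, where the other KO libraries lay between 26.0 and 47.7. Without KO 7 its log2 fold change fell to 0.13, the lowest of its values when each library was left out in turn. Knl1, the scaffold to which the checkpoint proteins dock, had the highest mean signal of the group, from 178 (median 249) to 460 for WT and from 179 (median 318) to 422 for KO (log2 fold change 0.15, SE 0.25). The large coiled-coil protein Cenpf had one of 0.24 (SE 0.21).

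Spindle motors, microtubule proteins and cytokinesis proteins made the largest group, with 11 of 12 members tested, 9 higher and 2 lower for KO (median log2 fold change 0.16). Kif11, the kinesin that pushes the spindle poles apart, ran from 93.8 (median 131) to 144 for WT and from 76.4 (median 143) to 161 for KO (log2 fold change 0.10, SE 0.19). KO 3 was the lowest library and KO 5, KO 6 and KO 7 lay above every WT library. Prc1, which bundles microtubules in the spindle midzone, ran from 101 (median 153) to 195 for WT and from 66.9 (median 160) to 375 for KO, so that both the lowest and the highest library were KO (log2 fold change 0.22, SE 0.33). KO 5 decided its direction, since the log2 fold change was -0.02 without that library. Kif23, the kinesin of the centralspindlin complex, was at 36.2 (median 43.2) to 69.6 for WT and 24.3 (median 36.3) to 54.0 for KO (log2 fold change -0.33, SE 0.21, exact permutation p = 0.149).

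Ect2, the exchange factor that switches on RhoA for the contractile ring, had signals of 19.2, 16.1, 20.3, 27.8, 29.3 and 26.6 in WT 2 to WT 7 and of 34.3, 22.8, 33.0, 35.9, 32.4 and 26.0 in KO 2 to KO 7. KO 2, KO 4, KO 5 and KO 6 lay above every WT library, while KO 3 and KO 7 lay within the WT range. Its mean was 23.2 ± 5.37 (SD, n = 6) for WT and 30.7 ± 5.15 (SD, n = 6) for KO, with a log2 fold change of 0.40 (SE 0.19, 95% interval -0.01 to 0.81). The tests fell on different sides of 0.05, with a two-sided exact permutation p of 0.0455 and a limma p of 0.0536 (adjusted p = 0.9996), on 14.0 to 43.0 approximate reads per library. The remaining tested members of the group, Anln, Gtse1, Hmmr, Kif2c, Kif15, Kif20a and Nusap1, had log2 fold changes from -0.08 for Hmmr to 0.43 for Gtse1, and their limma p was above 0.1. Kif4, a chromosome-bound kinesin, lay below the level tested (log2 fold change 0.05, exact permutation p = 0.801).

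Of the 7 condensin, topoisomerase and chromosome surface genes 4 were higher and 3 lower for KO (median log2 fold change 0.09). Ncapd2 (ENSMUSG00000038252.13, chr6:125168007-125191701 on the minus strand in GRCm38) encodes a HEAT-repeat subunit of condensin I. Its signal was 565, 436, 612, 565, 609 and 693 in WT 2 to WT 7 and 352, 426, 441, 487, 434 and 543 in KO 2 to KO 7. WT 3 was the lowest WT library and lay among the KO libraries, and the other 5 WT libraries lay above every KO library. The mean was 580 ± 84.6 (SD, n = 6) for WT and 447 ± 64.2 (SD, n = 6) for KO, a log2 fold change of -0.37 (SE 0.14, 95% interval -0.68 to -0.07). The exact permutation p was 0.0130 and the limma p 0.0202, and after Benjamini-Hochberg adjustment in limma p was 0.9996. When libraries were rescaled to their sum without the 15 genes of highest signal the limma p was 0.135 at a log2 fold change of -0.34, and without WT 7 it was 0.0505 at -0.32. Without WT 3 it was 0.00540 at -0.45, and without WT 3 and KO 7 it was 0.00261 at -0.51. An exon of Ncapd2 overlaps the small RNA gene Scarna10 on the same strand (chr6:125186359-125186683), which has no entry of its own in the table used.

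Among the other condensin subunits, Ncaph (-0.09, SE 0.23), Ncapg (0.15, SE 0.17), Smc2 (-0.09, SE 0.19) and Smc4 (0.24, SE 0.18) each had an interval that held 0. Smc2 and Smc4 form the ATPase ring of the complex, at 52.0 (median 96.8) to 119 for WT and 72.9 (median 81.2) to 105 for KO in the case of Smc2, and at 76.9 (median 115) to 159 and 106 (median 130) to 170 in the case of Smc4. Whether the fold change of Ncapd2 differs from theirs was not tested.

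Top2a, topoisomerase II alpha, was among the steadiest members, from 151 (median 179) to 199 for WT and from 140 (median 201) to 229 for KO (log2 fold change 0.09, SE 0.14, 95% interval -0.22 to 0.40). KO 4, KO 5 and KO 7 lay above every WT library and KO 3 below every one. Mki67 had the highest signal of all members, from 447 (median 728) to 901 for WT and from 488 (median 763) to 1020 for KO (log2 fold change 0.11, SE 0.20, 95% interval -0.31 to 0.53). WT 3 and KO 3 were its lowest libraries, and KO 6, WT 6 and KO 5 its highest.

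**Figure D3:**
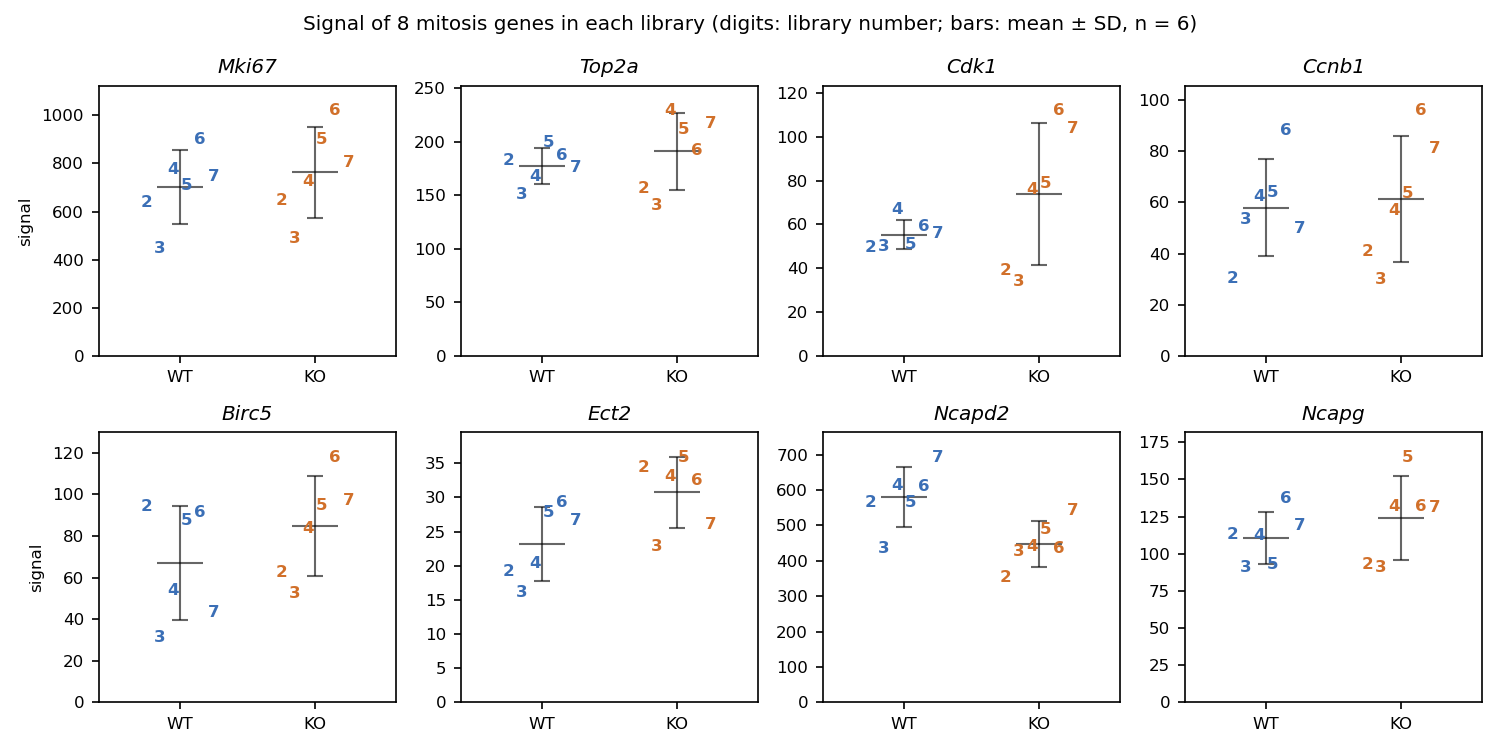
Signal (vertical axes, starting at 0) of 8 mitosis genes in the WT (blue) and KO (orange) libraries, each library drawn as its number, with the mean and SD of 6 libraries in black. WT 3 and KO 3 are low for most of these genes and WT 6 or KO 6 high, and Ncapd2 is the gene in which 5 WT libraries lie above every KO library.

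The members varied more within a label than between labels. The mean log2(signal + 1) of the 52 members was 5.30, 5.23, 5.63, 5.54, 5.89 and 5.57 in WT 2 to WT 7 and 5.28, 5.06, 5.60, 5.81, 5.88 and 5.96 in KO 2 to KO 7. Libraries numbered 3 were lowest and those numbered 2 next to lowest under both labels, and WT 6 and KO 7 were highest. The means were 5.53 ± 0.24 (SD, n = 6) for WT and 5.60 ± 0.36 (SD, n = 6) for KO, a difference of 0.07 that is smaller than either SD. The members spanned 0.65 within WT and 0.90 within KO, where the mean over all 8887 genes tested spanned 0.06 and 0.15. Averaging over so many genes and the size factors hold that mean nearly level, so it is no yardstick for a small set. Of smaller lists, the 12 neutrophil and monocyte genes spanned 1.07 and 1.17 and the 47 S phase genes 0.34 and 0.49. The order of the lowest libraries was the same in all 6 settings of scaling and pseudocount, the one reported included, while KO 6 in place of KO 7 was highest after quantile normalization or rescaling without the 15 highest genes.

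In a bulk sample, fewer cycling cells and less mitotic RNA per cycling cell cannot be told apart. The libraries numbered 2 and 3 also stood apart in composition, since Lars2 took 15.6% to 19.0% of their signal and 24.7% to 36.2% of that of the other 8 libraries. Their depth was within the range of the rest, at 2083159 to 2220029 approximate reads, and the libraries numbered 6 and 7 were the shallowest with 1235086 to 1484247. The neutrophil and monocyte marker list, which holds early granule genes of progenitors such as Mpo, summed to 454 to 2337 for WT and 568 to 2510 for KO and was highest in WT 6 and KO 6, while its markers of mature neutrophils, 5 of the 12 genes, stayed under a mean signal of 1. The part of Lars2, depth or myeloid progenitors in the levels of the mitosis genes was not tested.

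**Figure D4:**
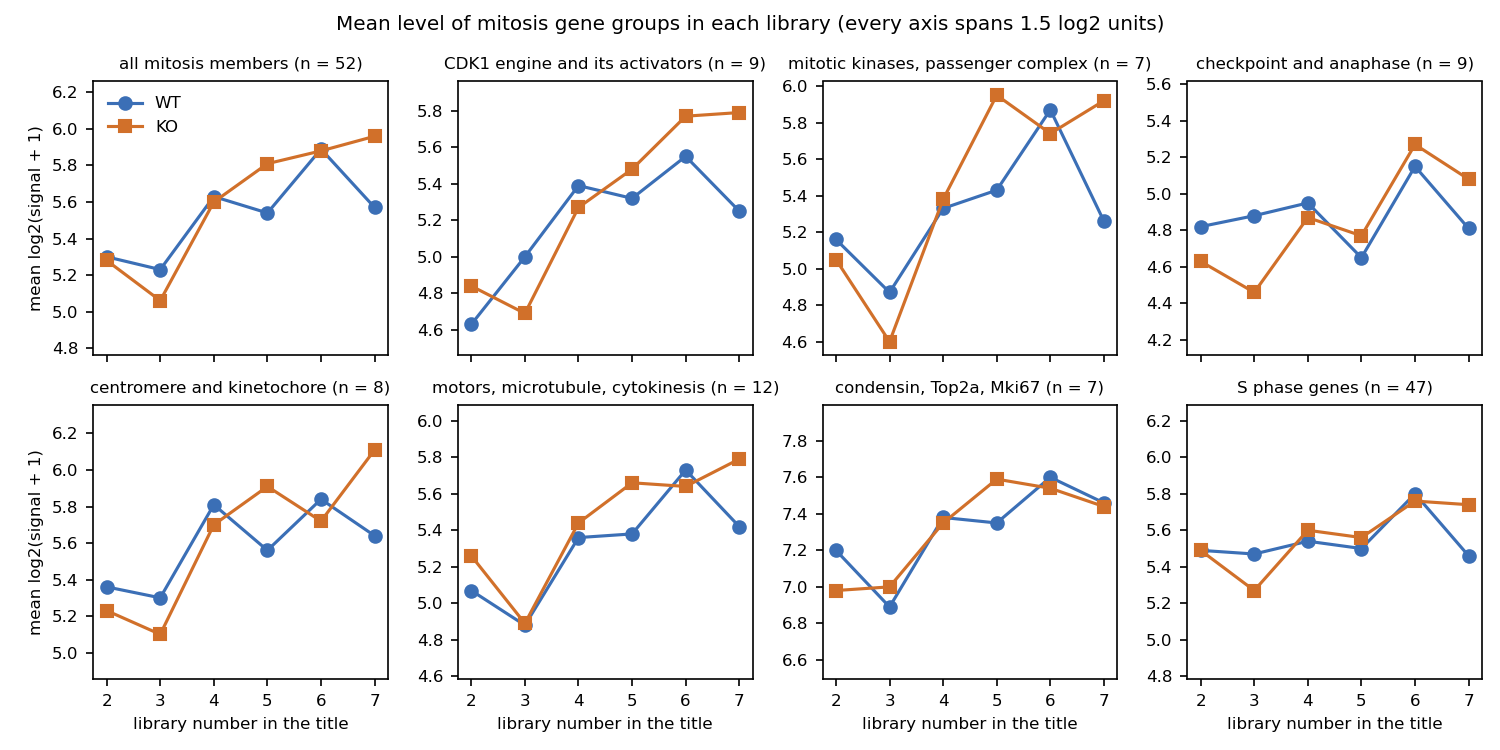
Mean log2(signal + 1) of the 52 mitosis genes, of their 6 role groups and of 47 S phase genes (vertical axes, each spanning 1.5 log2 units) in each library, by the number in its title (horizontal axis), for WT (blue circles) and KO (orange squares). Libraries numbered 2 and 3 lie low and those numbered 6 high under both labels for all members, from 5.06 in KO 3 to 5.96 in KO 7, and the lines join libraries only to guide the eye.

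This spread was shared by most members. In KO 3 the log2 signal of 48 of the 50 tested members lay below the mean of the KO libraries (median deviation -0.61) and in KO 2 that of 46 (-0.30). In WT 3 that of 43 (-0.32) and in WT 2 that of 35 (-0.22) lay below the mean of the WT libraries. In WT 6 that of 46 lay above the mean of the WT libraries (0.31), in KO 5 that of 43 (0.22) and in KO 7 that of 42 (0.35). Over all genes tested between 41.8% and 57.5% lay above their group mean in any library, with median deviations from -0.08 to 0.07. KO 3 was the lowest KO library for 34 members (68.0%, against 20.4% of all genes tested) and WT 3 the lowest WT library for 27 (54.0%, against 22.5%). WT 6 was the highest WT library for 25 of the 50 tested members, a larger share than the 25.6% of all genes tested. KO 7 was the highest KO library for 20 (40.0%, against 23.4%).

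By role, the mean log2 signal of the 7 kinases and passenger proteins ran from 4.87 to 5.87 within WT and from 4.60 to 5.95 within KO, and that of the 9 members of the CDK1 engine from 4.63 to 5.55 and from 4.69 to 5.79. The checkpoint and anaphase genes spanned 0.49 and 0.81, and the condensin, topoisomerase and chromosome surface genes 0.71 and 0.61. KO minus WT differences of the role groups lay between -0.03 and 0.14, each smaller than the SD of its KO libraries. Whether the spread differed between role groups was not tested.

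**Figure D5:**
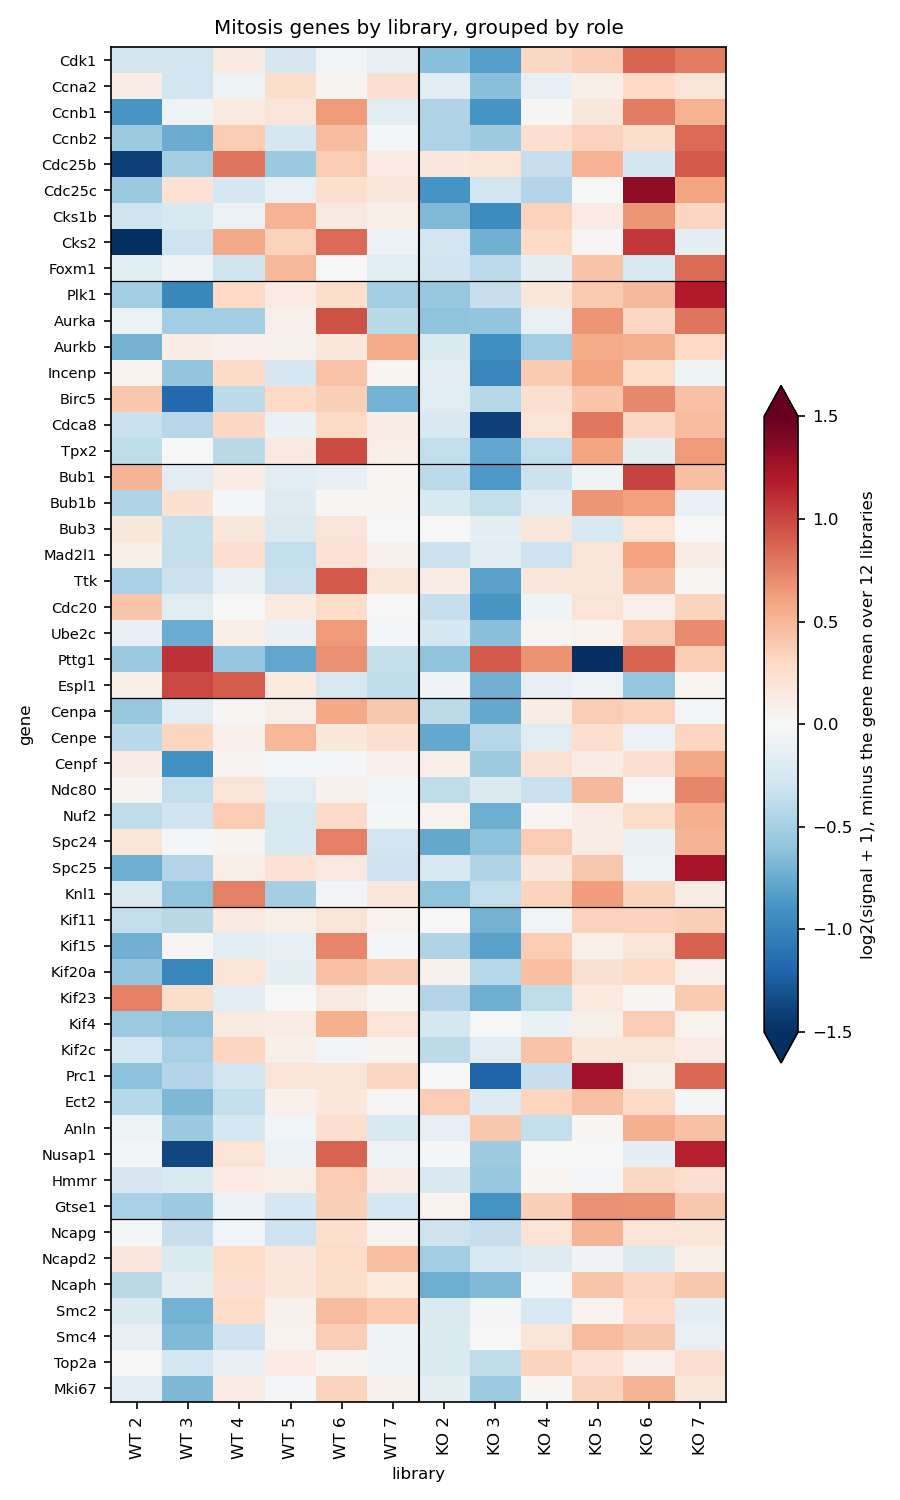
Log2(signal + 1) of each of the 52 mitosis genes in each of the 12 libraries (columns, WT left and KO right of the black line), as the difference from the mean of the gene over all libraries (colour, blue low and red high, saturated beyond 1.5). Rows are grouped by role, and the columns WT 2, WT 3, KO 2 and KO 3 are blue and WT 6, KO 5, KO 6 and KO 7 red for most genes.

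Members with and without a CHR near the start had similar medians between the labels, and the difference was not tested. The 30 members with a CHR within 50 bases of the start, of which 29 were tested, had a median log2 fold change of 0.10, and the 13 members with a promoter and no such CHR, 12 of them tested, one of 0.08. Their mean log2 signal spanned 0.63 within WT and 0.95 within KO in the members with a CHR there, and 0.75 and 0.85 in the members without. Ect2, Plk1, Espl1 and Top2a belong to the members with a CHR near the start, and Ncapd2, Mki67, Birc5 and Gtse1 to those without.

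Other genes of the mitotic machinery, a list of 106 of which 103 were in the table and 93 could be tested, divided into 48 higher and 45 lower for KO, with a median log2 fold change of 0.01. In limma 0 of them had an adjusted p under 0.05 and 4 an unadjusted one (4 of 93, against 3.67% of all genes tested), Cenpk, Cenpo and Oip5 higher and Numa1 lower for KO. Numa1, which anchors spindle poles, did not overlap between the labels, with 202 to 291 for WT and 135 to 193 for KO. Its log2 fold change was -0.42 (SE 0.14, exact permutation p = 0.00216, limma p = 0.00840, limma adjusted p = 0.9996). That permutation p is the smallest that 6 libraries against 6 allow, and every gene without overlap reaches it. Numa1 was named for its small p, and 8 of the 8887 genes tested did not overlap between the labels (0.09%). Cenpk, a subunit of the inner kinetochore, ran from 13.8 to 44.1 for WT and from 34.6 to 69.5 for KO (log2 fold change 0.85, SE 0.27, exact permutation p = 0.0216, limma adjusted p = 0.9996). Their mean log2 signal followed the same libraries, from 5.04 in WT 3 to 5.49 in WT 6 and from 5.02 in KO 3 to 5.47 in KO 6.

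S phase genes, which act earlier in the cycle in DNA replication, were compared as the neighbouring phase. Of 47 listed, 45 were tested, 22 higher and 23 lower for KO, with a median log2 fold change of -0.02. Rpa2, a subunit of the single-strand binding protein RPA (-0.51, SE 0.19, exact permutation p = 0.00866), and Mcm10, which helps to start replication forks (0.43, SE 0.20, exact permutation p = 0.0346), had an unadjusted limma p under 0.05 (2 of 45, against 3.67% of all genes tested), and both had an adjusted p of 0.9996. That of Rpa2 was 0.0621 after rescaling without the 15 highest genes and 0.0524 without WT 4. That of Mcm10 was 0.0512 with a pseudocount of 5 and reached 0.125 without KO 7, where its log2 fold change was 0.30. The spread over libraries was narrower than that of the mitosis genes, at 0.34 within WT and 0.49 within KO, and KO 3 was lowest and KO 6 highest among the KO libraries. Among the WT libraries WT 6 was highest at 5.80 and WT 7 lowest at 5.46, next to WT 3 at 5.47. WT 6 was the highest WT library for 22 of the 45 (48.9%), a share like that of the mitosis members, and KO 3 the lowest KO library for 20 (44.4%). WT 3 was the lowest WT library for 12 (26.7%, against 22.5% of all genes tested). Whether the spread of the mitosis genes differs from that of the S phase genes was not tested.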

How the data were processed

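LSK cells of 12 mice (6 WT and 6 KO by label) were sorted, and their mRNA was enriched and made into libraries with the CATS RNA-seq Kit. In the table that the authors deposited, each gene has a signal in each library, read here, by the table's name and its numbers, as an estimated count over the size factor of the library. The submitters' processing notes name kallisto. The mouse build and annotation, and whether counting used strand, are not given in the sources used here. The file holds no columns of the authors' own comparisons, and 0 columns were left unused. Kallisto shares reads between similar transcripts, so genes with close copies or overlapping neighbours are less certain, and 16 of the 52 members have an exon overlapped by another gene in GENCODE M21.

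No rescaling was applied to the signals. The 8887 genes whose mean signal reached 10 entered limma 3.58.1 (R 4.3.3) on log2(signal + 1), without covariates, with trended empirical Bayes moderation, two-sided p and Benjamini-Hochberg adjustment over all of them. Whole reads could not be recovered, so tests for read counts were not used. Depth is known only approximately, from the value on which low signals pile up. Exact permutation tests of single genes ran over the 924 divisions of the libraries, whose smallest p is 0.00216. Planned sign-flip tests of same-numbered libraries are not reported, since the numbers did not meet the criterion for pairs. Library numbers are those in the titles. Nothing says which mice were littermates or handled together, or whether male and female mice were mixed. P-values set a difference between the labels against the spread between these libraries. With 1 library per mouse, variation between mice and between library preparations cannot be told apart in that spread.

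The members and lists were chosen with earlier results of these data known. Named genes were fixed by role, with the smallest p and the highest mean signal of each role group, every member with an unadjusted p under 0.05, and the 2 smallest p of the other mitosis and S phase lists. Other members and marker genes are named to complete their group or because their values stood out, and some marker genes are not reported here. Positions come from GENCODE M21 (GRCm38) and promoters from RefSeq (GRCm38.p6), without those on chromosome 18. On simulated data with 8887 genes, limma called 63 of 100 genes changed by 1 and 94 of 100 changed by 2 on the log2 scale, and 6 unchanged genes. How many genes with such changes limma would call in the libraries of these mice was not tested. Alternatives were pseudocounts of 0.5 and 5, no filter or a minimum mean signal of 50, 3 other normalizations, limma without trend, a replicate block, each library left out and the libraries low in Y-linked transcripts left out. Python 3.11.15 with scipy 1.17.1 was used for the remaining steps.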

Additional observations from a re-analysis of the deposited data

Results flagged for a closer look

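In 9 of 108 groups of 6 libraries (the 52 members, their mean log2 signal and Fancg, under 2 labels), 1 library stood apart from the other 5 by more than Dixon's 95% critical value for the gap over the range. For single genes the gap was taken on the signal and not on its log2, on which high values lie closer to the rest. Chance gives about 1 in 20 groups, or 5.4 of 108, for independent groups of normally distributed values. The members rose and fell together over the libraries, so setting 9 against 5.4 is not a test.

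Aurka, Tpx2 and Ttk stood apart in WT 6. Aurka was at 62.4 there and at 21.9 to 33.6 in the other WT libraries, Tpx2 at 350 and at 133 to 194, and Ttk at 88.7 and at 32.9 to 52.6. Spc25 and Nusap1 stood apart in KO 7, Spc25 at 86.0 against 26.0 to 47.7 in the other KO libraries and Nusap1, which bundles spindle microtubules, at 173 against 52.4 to 76.8. Cenpf was low in WT 3, at 28.0 against 52.4 to 57.6. Foxm1 was at 30.7 in WT 5 against 17.2 to 21.2, and Bub1 at 19.1 in WT 2 against 11.5 to 14.2. Fancg was at 24.1 in WT 7 against 4.76 to 9.4. WT 6, KO 7 and WT 3 are also among the libraries in which most members were high or low together.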

How the results depend on the processing

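In limma the count of genes with an adjusted p under 0.05 was 0 in each of the 22 alternatives, and the lowest adjusted p of a named gene was 0.889. The count of genes with an unadjusted p under 0.05, 326 as reported, was 836 without a filter (415 higher, 421 lower for KO) and 91 with a minimum mean signal of 50 (45 and 46), from more and fewer genes tested. It was 275 to 383 when each library was left out in turn. Among the members the count of unadjusted p under 0.05 was 2 without a filter and 2 for limma without trend, 0 after rescaling without the 15 highest genes, and 1 to 3 with a library left out. The median log2 fold change of the members was 0.01 to 0.22 and their mean difference per library 0.00 to 0.18 with a library left out, and both were -0.06 without WT 3 and KO 7.

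With the replicate block, 476 genes and 2 members (Ncapd2 and Ect2) had an unadjusted p under 0.05, and 0 genes an adjusted one, while the unadjusted p of Mcm10 was 0.0566. The deviations of same-numbered libraries correlated by 0.196 on average, against -0.039 for different numbers, and 4 of 6 pairs exceeded 0.1. In 5 of 6 WT libraries the closest KO library had the same number, a hint from the data and not from the design.

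Of 34 named genes with a fit, 19 kept their direction throughout and 15 did not. The log2 fold change of Bub3 was -0.01 after median-of-ratios rescaling and -0.02 after quantile normalization. Without WT 3 and KO 7 it was -0.07 for Bub3, -0.06 for Ccnb1, -0.09 for Foxm1, -0.07 for Aurka, -0.05 for Mad2l1, -0.10 for Ndc80, -0.03 for Kif11, 0.00 for Prc1 and -0.03 for Mki67. Leaving out each library turned the sign of Ccnb1 (-0.12 to 0.23), Cks2 (-0.23 to 0.26), Mad2l1 (-0.08 to 0.10), Mki67 (-0.01 to 0.23), Bub3 (-0.07 to 0.05), Cks1b (-0.19 to 0.13), Tpx2 (-0.28 to 0.04), Aurkb (-0.24 to 0.09), Ccna2 (-0.17 to 0.01), Cenpa (-0.24 to 0.03), Foxm1 (-0.09 to 0.18), Prc1 (-0.02 to 0.48) and Ndc80 (-0.04 to 0.18). None of these values had passed a test, and the cause was not tested. Depth limits the low members most, and differences under about the size of their intervals were not detectable.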

Other observations

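Mki67 was set against 5 genes over the 12 libraries, on log2(signal + 1), with the genes chosen after values had been seen and the libraries of a number perhaps not independent. With Mpo, the myeloperoxidase gene of myeloid progenitors, Pearson's r was 0.80 (permutation p = 0.00234, adjusted over the 5 relations 0.00585) and Spearman's rho 0.92 (permutation p = 9e-05, adjusted 0.00045). Without the libraries farthest from the median of Mki67, WT 3 and KO 3, r was 0.93, and it was 0.68 within WT and 0.92 within KO. With Hlf, a transcription factor gene of stem cells, r was -0.86 (permutation p = 0.00085, adjusted 0.00425) and rho -0.88 (permutation p = 0.00044, adjusted 0.0011), with r of -0.86 without those libraries, -0.83 within WT and -0.90 within KO. Hlf was at 38.4 in WT 6 and 38.7 in KO 6, the libraries in which Mpo reached 1510 and 1650, and at 136 in WT 2 and WT 3.

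With Flt3, a receptor gene of multipotent progenitors, r was -0.67 (permutation p = 0.0182, adjusted 0.0182) and rho -0.75 (permutation p = 0.00728, adjusted 0.0091), with r of -0.83 without WT 3 and KO 3, -0.35 within WT and -0.89 within KO. Among the members themselves, Ccnb1 had an r of 0.74 (permutation p = 0.00682, adjusted 0.0114) and a rho of 0.83 (permutation p = 0.00172, adjusted 0.00287), with r of 0.86 without WT 3 and KO 3, 0.47 within WT and 0.94 within KO. For Top2a, r was 0.68 (permutation p = 0.0138, adjusted 0.0172) and rho 0.58 (permutation p = 0.0531, adjusted 0.0531). Its r was 0.66 within WT, which includes WT 3, and 0.72 within KO, which includes KO 3. Since r was 0.31 without WT 3 and KO 3, this relation rests on those libraries. Over the 8 libraries numbered 4 to 7, apart from those numbered 2 and 3 in which Lars2 took a smaller share, r was 0.88 for Mpo, -0.80 for Hlf, -0.87 for Flt3, 0.76 for Ccnb1 and -0.08 for Top2a. Hlf and Flt3 come from the list of 14 LSK and stem cell markers, and the other markers were not set against Mki67. Some of them went the other way between the libraries low and high in Mki67. Cd48 was at 38.6 in WT 3 and 89.4 in WT 6, and at 49.6 in KO 3 and 78.9 in KO 6. The relations are thus those of single genes and not of the stem cell markers as a set. What sets these relations was not tested.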
